A study of Oreochromis niloticus with 16 samples.

Results

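The testis of adult Nile tilapia was compared with 9 adult somatic libraries, namely liver, heart, eye, and brain, red muscle and white muscle of each sex. These 10 libraries are among 16 small RNA libraries of the series. The ovary library was left out of the comparison, as were 5 embryo and larva libraries. Ovary values are given only beside testis values. All fish were of the Chitralada strain and were not treated. The adult fish are described as 6 months old, while a higher age is given elsewhere for the male white muscle sample. Liver and eye are described as from fish of both sexes and heart as from females, although the liver title also opens with an F. There is 1 testis library. Its label gives the tissue as gonad, and it was taken as testis from the M that opens its title and the male sign in the header of its counts. No testis of other fish, no sorted cell type and no stage of spermatogenesis was measured. Intestine, kidney, skin and spleen were not among the adult libraries, so that somatic here means only the tissues named above. The titles of the 2 female muscle libraries share a fish number, as do those of female brain and ovary, so that these pairs may come from 1 fish each.

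MicroRNAs (miRNAs) are short RNAs cut from hairpin precursors, and each hairpin can give a mature miRNA from its 5′ arm (5p) and from its 3′ arm (3p). They lower the stability and translation of messenger RNAs that pair with them. The fish testis holds germ cells in cysts, the Sertoli cells that enclose them, steroid-producing Leydig cells, contractile peritubular cells, vessels and blood. In a whole organ, fewer cells of a type and less miRNA per cell cannot be told apart.

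Reads that match several loci were divided over those loci, summed per mature name and given per 1000000 divided reads of the library (CPM). The testis library held 1308075 divided reads, and the somatic libraries held 1280982.5 (heart) to 11517367.5 (male red muscle). One read was therefore worth 0.764 CPM in testis. Counting intervals are exact and at 95%, and they cover counting error only, as the reads carry no molecular identifiers. They do not stand for the spread between fish. As a measure of that spread, female and male libraries of the same tissue differed by a median of 1.45-fold in white muscle, 1.76-fold in red muscle and 1.44-fold in brain. In 1 name of 10, they differed by more than 3.16-fold, 6.07-fold and 2.80-fold in the same order. These values cover only names with at least 50 reads in both libraries (167, 187 and 201 names), so the spread of rarer names is not given.

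At equal depth, testis held the most miRNA names of the 10 libraries, by a small margin and from 1 library. It held 394 of the 577 names with at least 1 read. The muscle and brain libraries, which are deeper, held 402 (male white muscle) to 449 (female brain). At the depth of heart, 390 names were expected in testis, against 304 (heart) to 378 (male brain) in the somatic libraries. The 5 most abundant names took 50.5% of the testis reads. The effective number of names, which is the exponential of the Shannon entropy and falls when a few names take most reads, was 25 in testis and 8.45 (eye) to 22.7 (female red muscle) in the somatic libraries. The most abundant names of testis were miR-100-5p (130857 CPM), miR-10a-5p (110788 CPM), miR-143-3p (99399 CPM), miR-26a-5p (84066 CPM), miR-126-3p (80252 CPM), miR-10b-5p (53361 CPM), miR-146a-5p (41436 CPM), miR-7a-5p (37863 CPM), let-7a-5p (36158 CPM) and miR-21-5p (34815 CPM). Of these 10, only miR-10a-5p, miR-143-3p, miR-146a-5p and miR-7a-5p were above all 9 somatic libraries. The other 6 are widespread miRNAs whose testis level lay within the somatic range.

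For 431 names, 1 or more of the 10 libraries held 10 or more reads. Of these names 53 (12.3%) had their highest level in testis. These names held 40.2% of the testis reads. Among them 23 had at least 50 testis reads, and 12 of the 23 were at least 2-fold above the highest somatic library. The other 30 had fewer than 50 testis reads. Only 8 names (1.86%) were below all 9 somatic libraries. A name with 0 reads in any somatic library could not be counted here, so the 2 shares are not alike. As a background, 99 names had their highest level in male brain, 75 in liver and 47 in female red muscle. With at least 50 reads in that library, these counts were 69, 47 and 40. They were 33 in male red muscle and 23 in female brain, beside the 23 of testis. With 1 library against 9, an exact permutation test cannot go below p = 0.1 one-sided, so that the testis counts are a description. With library totals scaled by TMM factors, which correct for a few names taking up most of a library, testis was above all somatic libraries for 38 names and below all for 18. Of the 53 names 36 stayed above, including 22 of the 23 with at least 50 reads.

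**Figure D1:**
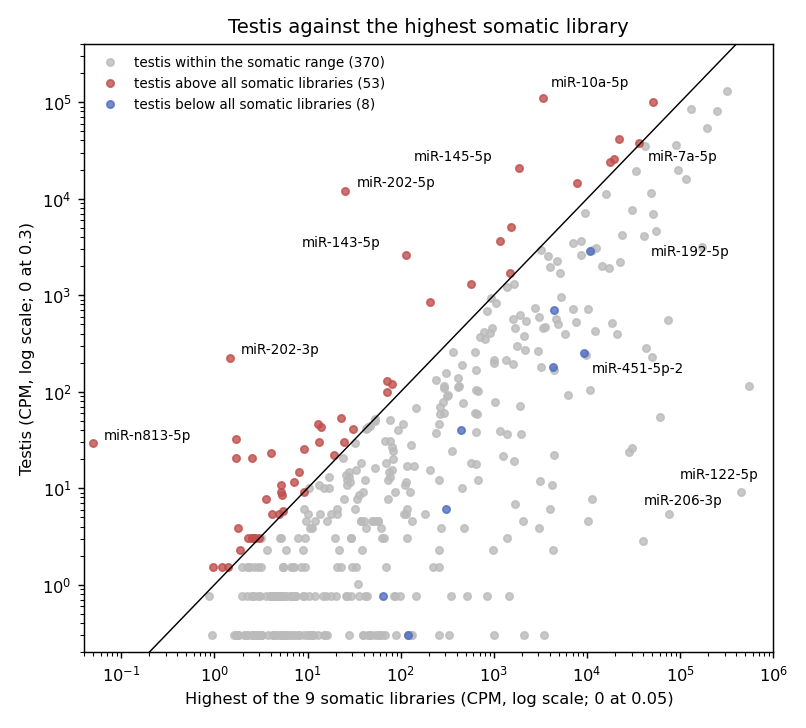
Level in testis (vertical axis, CPM, log scale) against the highest of the 9 somatic libraries (horizontal axis, CPM, log scale) for the 431 names. Points above the diagonal line are the 53 names at their highest in testis, with miR-202-5p and miR-10a-5p farthest above it among abundant names, and miR-122-5p and miR-206-3p lie far below it.

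A second comparison set testis against the mean of the 6 somatic tissues on a log scale, with edgeR's quasi-likelihood test. Its spread comes from the female and male pairs of white muscle, red muscle and brain (3 residual degrees of freedom), and the lone testis library is assumed to vary like them. It called 39 names higher in testis (9.05% of 431) and 6 lower (1.39%) at an adjusted p under 0.05. The median log2 fold change over all names was -0.07, and with library totals alone it was 0.50. The split into higher and lower calls depended on the scaling, with 43 higher and 1 lower under library totals, 36 and 3 under RLE factors, and 28 and 23 with DESeq2. Of the 39 names, 23 were above all 9 somatic libraries and 16 lay within the somatic range, 24 had 0 reads in at least 1 library, and 14 had fewer than 50 testis reads. The fitted fold changes of names with 0 reads depend on a small count that the tool adds and are no bounds. For 1 of these names, miR-202-3p, testis held 295 reads and liver, the highest somatic library, held 2. The somatic libraries could therefore show little spread for this name. When the 9 somatic libraries were taken as 1 group, so that tissue differences counted as spread, only miR-202-3p passed (1 higher and 0 lower, 11 at an unadjusted p under 0.05). With the 3 male somatic libraries as the only others, 0 names passed in edgeR, with 8 at an unadjusted p under 0.05.

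The miRNA with the largest distance from the somatic tissues was miR-202, which in vertebrates is known from the gonads. In testis, miR-202-5p was at 11961 CPM (15646 reads, interval 11774 to 12150). In the somatic libraries it was at 25.4 CPM in male white muscle, 4.24 in female white muscle, 0.591 in male brain and 0.197 in female brain, and it had 0 reads in both red muscle libraries, liver, heart and eye. Testis was 470-fold above male white muscle (interval 390 to 573), 2824-fold above the next library, and at least 5107-fold above the median library, which had 0 reads and was set to a floor of 3 counts. After TMM scaling, testis was 269-fold above male white muscle, outside that counting interval. The log2 fold change was 16.08 ± 1.06 (SE, adjusted p = 9.99e-07 in edgeR).

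The other arm, miR-202-3p, was much rarer. It was at 225.5 CPM in testis (295 reads), while 8 of the 9 somatic libraries had 0 reads and liver had 2 reads (1.48 CPM). The ratio of testis to liver was 152.2 with a wide counting interval of 41.8 to 1263, and testis was at least 96.3-fold above the median library. The log2 fold change was 11.67 ± 0.92 (SE, in edgeR), for a name that entered the test through its testis reads alone. Both arms passed in every fit that left out 1 somatic library. In ovary miR-202-5p was at 775.1 CPM, below testis, and miR-202-3p at 389.7 CPM, above it. For each arm of miR-202, both gonad libraries were above all 9 somatic libraries.

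**Figure D2:**
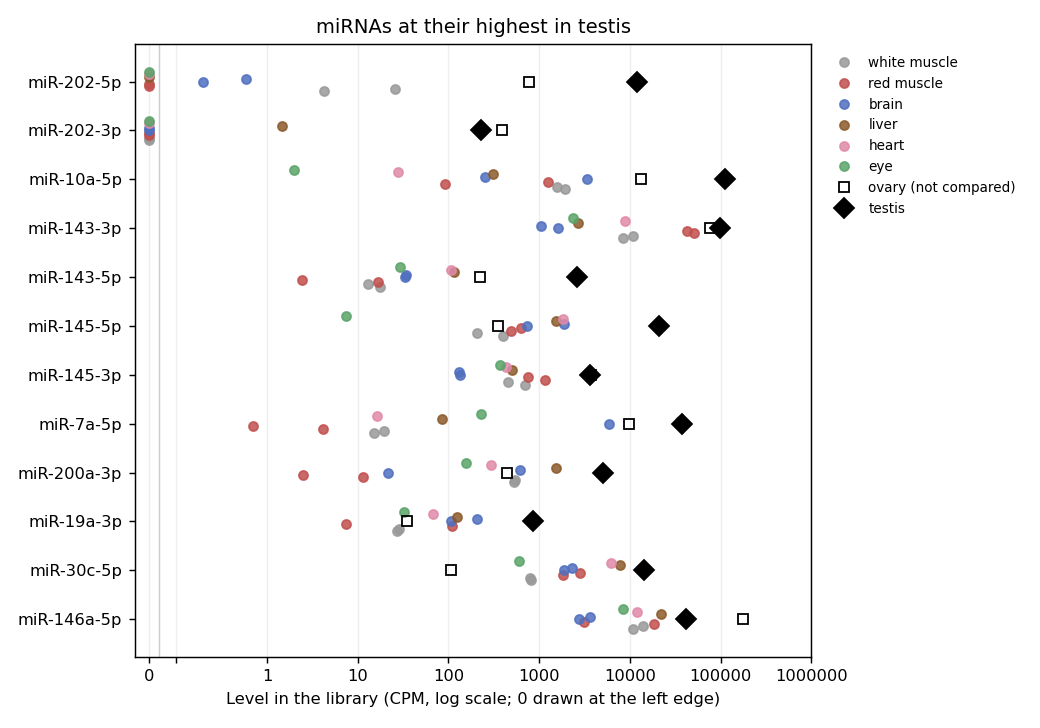
Levels of 12 miRNAs in testis (black diamond), ovary (open square) and each of the 9 somatic libraries (coloured by tissue), in CPM on a log scale with 0 at the left edge. Testis lies to the right of every somatic point in all 12 rows, by 470-fold for miR-202-5p and by 1.05-fold for miR-7a-5p, whose nearest point is male brain.

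The miR-10 family sits in the Hox clusters, the gene groups that pattern the body axis. Its member miR-10a-5p was the most abundant miRNA above all somatic libraries. It stood at 110788 CPM in testis, against 3370 in female brain, 1945 and 1556 in white muscle (female, male), 1265 in male red muscle, 311.8 in liver, 252.6 in male brain, 92.5 in female red muscle, 28.1 in heart and 2.00 in eye. Testis was 32.9-fold above the highest of them (interval 32.4 to 33.4) and 355-fold above their median. After TMM scaling, testis was 29.2-fold above female brain. Ovary, outside the comparison, held 12476 reads of miR-10a-5p in 941828 divided reads. That is below the testis level but also above every somatic library. The 2 brain libraries themselves differed by more than 10-fold, and the 2 red muscle libraries did as well. The log2 fold change was 8.61 ± 0.99 (SE, adjusted p = 5.22e-05 in edgeR). The 3p arm, miR-10a-3p, had 42 reads in testis (32.1 CPM), 18.9-fold above female white muscle, with a log2 fold change of 6.70 in edgeR. It entered the test through its testis reads alone, and DESeq2 did not call it.

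The other miR-10 members did not stand apart. Testis had 53361 CPM of miR-10b-5p, within a somatic range of 177 (heart) to 194601 (male white muscle), and its log2 fold change of 2.45 had an adjusted p of 0.0538. Testis had 19432 CPM of miR-10c-5p, also within the range, where the test against the tissue mean passed (log2 fold change 3.29, adjusted p = 0.0117), but not without male red muscle (0.0794), heart (0.0685) or eye (0.209). Testis therefore differed from the somatic tissues in the makeup of the family. Of the 5p reads of miR-10a, b, c and d, miR-10a took 59.8% in testis, 28.0% in ovary and 0.0416% (female red muscle) to 13.3% (male brain) in the somatic libraries. There were 2.08 reads of miR-10a-5p for 1 of miR-10b-5p in testis, against 0.417 in ovary and at most 0.249 in a somatic library. For 1 read of miR-10c-5p there were 5.70 of miR-10a-5p in testis, 5.90 in ovary and at most 0.537 in a somatic library. In this second ratio testis and ovary were alike. Neither ratio depends on how libraries are scaled.

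**Figure D3:**
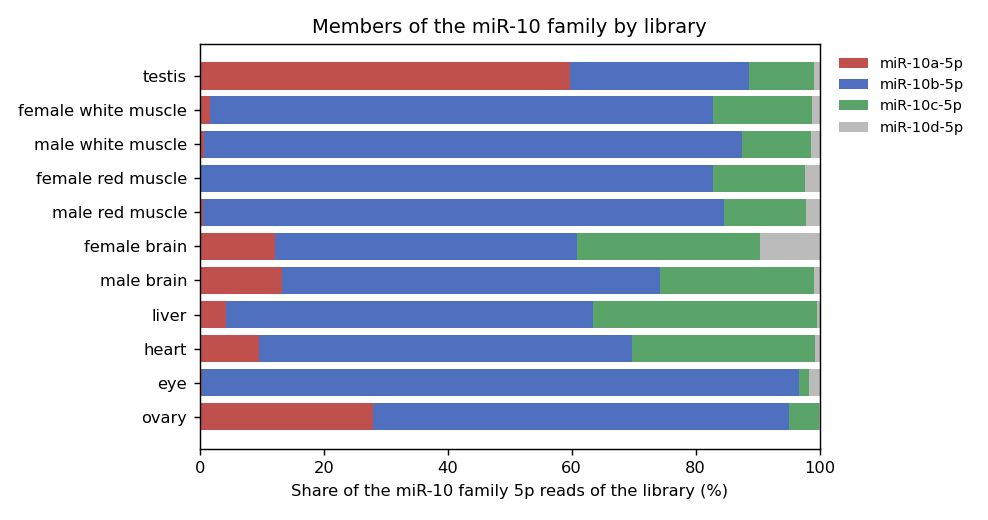
Share of the 4 miR-10 family 5p miRNAs (%, horizontal axis from 0 to 100) in the family's reads of each library. Testis is the only one of the 11 bars in which miR-10a-5p takes the largest share (59.8%), and miR-10b-5p takes the largest share in the others.

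The Hox cluster list, which also holds miR-196, had 7 of 13 names higher in testis in edgeR and 0 lower, beside 9.05% and 1.39% of all names, with a median log2 fold change of 4.48. Besides the 3 named above, these were both arms of miR-196a and miR-196b, a family that also lies between Hox genes. Their levels were low, with 107.8 CPM of miR-196a-5p and 5.35 to 10.7 CPM of the other 3. Red muscle had more of miR-196a-5p than testis (293.8 CPM in the female and 135.4 in the male), and brain, heart and eye had under 1 CPM. The count of 7 fell to 4 without male red muscle and to 4 without eye, where miR-10c-5p, miR-196a-3p and miR-196b-3p were lost, to 5 without liver, and to 3 in DESeq2, which did not call miR-10a-3p, miR-196a-3p, miR-196b-3p or miR-196b-5p.

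Next to these stood miR-143 and miR-145, which are made from 1 transcript and are known for smooth muscle and other contractile cells. All 4 of their arms were above every somatic library and all 4 passed the test, beside 12.3% and 9.05% of all names. As these arms come from 1 transcript, they are not 4 separate results. In testis, miR-143-3p was at 99399 CPM. Red muscle came next, at 50426 CPM (female) and 42450 CPM (male), and the other somatic libraries ran from 1034 (male brain) to 10753 CPM (male white muscle). Testis was 1.97-fold above female red muscle and 11.9-fold above the median, with a log2 fold change of 3.55 ± 0.49 (SE, adjusted p = 1.91e-04 in edgeR). The first of these ratios, which became 1.18 over male red muscle after TMM scaling, is within the spread of female and male red muscle, where 1 name in 10 differed by more than 6.07-fold. Ovary held 72195 reads of miR-143-3p in 941828 divided reads, below the testis level but also above every somatic library.

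The passenger arm miR-143-5p was at 2631 CPM, 23.1-fold above liver (114.1 CPM) and 91.0-fold above the median (log2 fold change 5.70, adjusted p = 3.82e-05 in edgeR). The 5p arm thus took 2.58% of the hairpin's reads in testis, which is inside its somatic range of 0.00573% (male red muscle) to 4.09% (liver). After TMM scaling, the testis level of miR-143-5p was 12.6-fold above heart. For miR-145-5p, testis had 20796 CPM, while the somatic libraries ran from 7.48 (eye) over a median of 630.8 to 1854 CPM (male brain). Testis was 11.2-fold above male brain, or 5.82-fold above heart after TMM scaling, and the log2 fold change was 5.09 ± 0.56 (SE, adjusted p = 3.82e-05 in edgeR). The level of miR-145-3p was 3605 CPM, 3.11-fold above female red muscle, with a log2 fold change of 2.52 (adjusted p = 0.00823 in edgeR).

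The arms of miR-145 separated testis from ovary but not from the somatic tissues. In testis 85.2% of the hairpin's reads came from the 5p arm (Wilson interval 84.8 to 85.6), in ovary 8.76%, and in the somatic libraries 1.98% (eye) to 93.5% (male brain). Ovary had about the testis level of miR-145-3p (3692 CPM) but 354.6 CPM of miR-145-5p. Over 161 hairpins with enough reads, 0 had a dominant arm in testis that differed from every somatic library, and this count was 0 at minimums of 20, 50 and 200 reads and in both kinds of count. No test was run on it.

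In mammals miR-7 is known from neurons and from hormone-secreting cells of the pituitary and pancreas. It was at 37863 CPM of miR-7a-5p in testis. Male brain had 35981 CPM and female brain 5813, while the other 7 somatic libraries had 0.695 (male red muscle) to 226.4 CPM (eye). Testis and male brain were thus at nearly 1 level, with a ratio of 1.05 that turned to 0.973 under TMM scaling, and both were over 100 times above the other 7 libraries. The test against the tissue mean gave a log2 fold change of 8.31 ± 0.72 (SE, adjusted p = 5.72e-06 in edgeR). The name sums 4 loci that share reads. Of the other 9 names of the pancreas and pituitary list, 0 passed. Testis had 91.7 CPM of miR-216a-5p, against 6186 in liver, and 590.2 CPM of miR-217-5p, also within the range. Of the neuronal miR-124a-3p, testis had 34 reads (25.99 CPM), against 30369 and 14668 CPM in the brain of the female and the male.

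Of 9 epithelial names tested, 3 were higher in testis, 1 was lower and 5 did not pass, beside 9.05% higher and 1.39% lower over all names. Members of the miR-200 family, known for holding cells in an epithelial state, made up the 3 higher names, and all 3 were above every somatic library. In testis miR-200a-3p was at 5091 CPM, against 1541 in liver, 617.7 in male brain and 2.52 to 540.1 in the other libraries (3.30-fold above liver, log2 fold change 4.05, adjusted p = 0.00614 in edgeR). Its other arm miR-200a-5p was at 42.8 CPM, and miR-200b-3p was at 1698 CPM, 1.15-fold above liver (log2 fold change 3.44, adjusted p = 0.0103). Without male red muscle the adjusted p was 0.0563 for miR-200a-3p and 0.0642 for miR-200b-3p, which left 1 of the 3 calls. Of the same family, miR-429a-3p was at 49.7 CPM, beside 52.6 in liver. In contrast, miR-205-5p, which marks stratified epithelium such as skin, was lower, with 6 reads (4.59 CPM) against a somatic median of 182.8 and 2062 and 1759 CPM in white muscle (log2 fold change -4.51, adjusted p = 0.0165 in edgeR, and 0.0584 without eye). It was as low in brain (2.75 and 3.69 CPM) and lower in heart. The skin miRNA miR-203a-3p was at 16.8 CPM, within the range.

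Members of the miR-17-92 family are made from shared transcripts and are known for proliferating cells. Of its 20 names, 3 were above every somatic library, a share near the 12.3% of all names. All 3 were miR-19, of which miR-19b-5p had only 4 reads. In testis miR-19a-3p was at 847 CPM, 4.11-fold above male brain (206.1 CPM) and 12.5-fold above the median of 67.9, and the test passed (log2 fold change 3.18 ± 0.76 SE, adjusted p = 0.0126 in edgeR). Its paralogue miR-19b-3p was at 1291 CPM, 2.28-fold above male brain (567.4 CPM), with an adjusted p of 0.0532. Several other members were within the somatic range. They included miR-17a-5p at 110.6 CPM beside 414.8 in liver, miR-18a-5p at 13.8 CPM beside 25.9 in liver, miR-20a-5p at 258.4 CPM beside 365.2 in liver, and miR-92a-3p at 3608 CPM beside 8499 in male red muscle. Of the 20 names of the family, 1 was higher and 0 were lower, a share under the 9.05% of all names. In ovary miR-19a-3p was at 35.04 CPM and miR-19b-3p at 41.4 CPM.

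Of 10 miR-30 names, known from many differentiated tissues, 1 passed, which is near the 9.05% of all names called higher. It was miR-30c-5p at 14355 CPM, beside 7701 in liver, 6165 in heart and 603.6 to 2840 elsewhere (1.86-fold above liver, log2 fold change 2.11, adjusted p = 0.0338 in edgeR). This call was lost without female white muscle, without male white muscle and without eye, with an adjusted p of up to 0.0723. Also above every somatic library, but not past the test, were miR-30e-5p (23675 CPM, 1.36-fold above female red muscle), miR-146a-5p (41436 CPM, 1.89-fold above liver), miR-22a-3p (25519 CPM, 1.32-fold above female white muscle) and miR-21-3p-2 (53.5 CPM, 2.34-fold above male white muscle). After TMM scaling, miR-30c-5p was 1.18-fold above heart. The leads of miR-30e-5p, miR-146a-5p, miR-22a-3p and miR-21-3p-2 over the highest somatic library became 1.02-fold, 1.68-fold, 1.04-fold and 1.34-fold. Of them miR-146a-5p is known from innate immunity, and it reached 174634 CPM in ovary. A rarer pair passed with both arms. The 5p arm, miR-2187-5p, had 170 reads, 1.83-fold above male brain with 70.9 CPM. It was at 18.3 CPM in female brain and had 0 reads in the 4 muscle libraries (log2 fold change 6.38, adjusted p = 1.91e-04 in edgeR), and miR-2187-3p was at 23.3 CPM beside 4.06 in male brain.

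Several miRNAs known from other organs were second highest in testis among the tissues compared, which did not include intestine or kidney. For 4 names with at least 50 testis reads, the testis level was below 1 somatic tissue and at least 5-fold above all others. The intestinal and hepatic miR-192-5p was at 40683 CPM in liver, 4082 in testis and 483.9 in male white muscle, and under 20 CPM in the other 7 libraries. Its partner miR-194a-5p was at 2177 CPM in liver, 268.3 in testis and at most 7.23 elsewhere. The neuronal miR-153a-3p was at 1665 and 1334 CPM in male and female brain, 454.1 in testis, 60.3 in eye and at most 3.14 elsewhere, and miR-153a-5p followed the same order. All 4 passed the test against the tissue mean (log2 fold changes 5.90 for miR-192-5p, 8.36 for miR-194a-5p and 7.46 for miR-153a-5p, adjusted p from 1.05e-04 to 0.00112 over the 4 in edgeR). In DESeq2 miR-153a-5p did not pass (adjusted p = 0.546). The value for miR-153a-3p turned to a log2 fold change of -0.25 against the 3 male libraries, of which brain is 1.

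Among other miRNAs known from liver and brain, miR-122-5p and miR-9-5p-2 were low in testis. The hepatocyte miRNA miR-122-5p was at 9.17 CPM in testis (12 reads), against 450152 in liver and 0.434 to 93.1 in the other libraries, and it was lower than the tissue mean (log2 fold change -3.62, adjusted p = 0.0413 in edgeR, and 0.736 without liver). The neuronal miR-9-5p-2 was at 23.7 CPM beside 28325 in female brain. A rarer name, miR-9-5p, went the other way, with 27 testis reads and a level 8.22-fold above male brain. It was called higher in edgeR but not in DESeq2. Thus liver had 49069 times as much miR-122-5p as testis, but 9.97 times as much miR-192-5p. Of other names that were higher in the test but within the range, miR-187-3p was at 114.7 CPM (417.9 in female brain), miR-135b-5p at 500.7 CPM (4858 in eye) and miR-184-3p at 3071 CPM. The last is known from the lens and cornea and had 12587 CPM in eye, 1373 and 1786 in white muscle and 2.51 to 66.7 elsewhere. Its log2 fold change was 4.44 against the tissue mean and -0.38 with the somatic libraries as 1 group. A near copy, miR-184-3p-2, shares reads with it, and it likewise turned from 3.91 to -1.13.

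**Figure D4:**
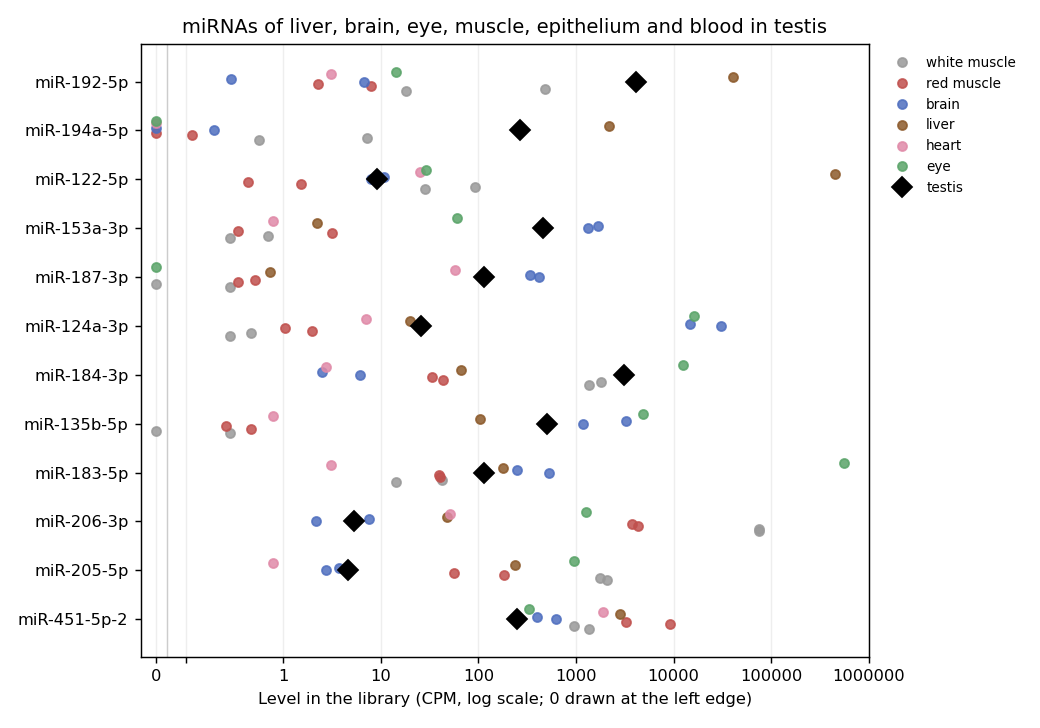
Levels of 12 miRNAs known from liver, brain, eye, muscle, epithelium and blood in testis (black diamond) and the 9 somatic libraries (coloured by tissue), in CPM on a log scale with 0 at the left edge. Testis is second to liver for miR-192-5p and miR-194a-5p, at 4082 and 268.3 CPM. For miR-122-5p, at 9.17 CPM, it lies among the somatic libraries other than liver, and far below liver. It is left of all other points for miR-451-5p-2.

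Among the 6 names called lower, miR-206-3p, a skeletal muscle miRNA, had the largest change. It had 7 reads in testis (5.35 CPM), against 75619 and 75831 CPM in white muscle, 4292 and 3780 in red muscle (each female, then male), 1266 in eye, 47.4 to 51.5 in liver and heart and 2.16 and 7.53 in brain. Testis was as low as brain and far below muscle (log2 fold change -6.83 ± 1.17 SE, adjusted p = 0.00109 in edgeR). It was the only 1 of the 6 to pass in every fit that left out a somatic library. Besides miR-205-5p and miR-122-5p, the others were miR-724-5p (8 reads, log2 fold change -4.33), miR-182-5p of the retina (3.67 divided reads, -4.02) and the neuronal miR-9-3p-2 (14 reads, -3.63). Every one of the 6 lay within the somatic range, and all rested on at most 14 testis reads. The muscle miRNAs miR-1-3p (3134 CPM, above the somatic median of 1405) and miR-133a-3p (556.0 CPM) did not pass.

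Of the 8 names below every somatic library, 1 was on the blood cell list. Testis had 248.5 CPM of miR-451-5p-2, the red cell miRNA, against 326.6 (eye) to 9275 CPM (female red muscle), with an adjusted p of 0.0514. Outside that list, testis had 178.9 CPM of miR-2188-5p, beside 225.4 to 4254. The others were miR-2188-3p, miR-181a-3p-2, miR-181b-5p, let-7c-5p, let-7g-5p and miR-103-5p-2, and 0 of the 8 passed the test. The last had 0 testis reads, which allows up to 2.29 CPM, and 5 somatic libraries were under that limit too, so that its place below them was not detectable at this depth. In testis let-7g-5p was at 2880 CPM, beside 4376 (male white muscle) to 10608 CPM (female brain). The let-7 family, known for rising with differentiation, had 0 of 23 names past the test in edgeR, while DESeq2 called 2 lower. The family summed to 60436 CPM in testis, near the lowest somatic library (59618 in eye).

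The lists of other cell types that a dissected testis can hold gave these sums, with library totals and without TMM scaling. Blood cell miRNAs summed to 1186 CPM in testis, below the somatic median of 2538 and within the range of 791.1 (male brain) to 20667 CPM (female red muscle), and 0 of 9 names passed. A white blood cell miRNA of this list, miR-142a-3p, was at 98.6 CPM, 1.40-fold above the highest somatic library. Endothelial miR-126 (both arms) summed to 80783 CPM beside 4173 (eye) to 248823 CPM (heart), and 0 of 2 passed. Mesenchymal miR-199 and miR-214 summed to 13268 CPM beside a median of 11705, and 0 of 7 passed. Skeletal muscle and heart miRNAs summed to 4010 CPM beside a median of 32865, with 1 of 10 lower. Smooth muscle miRNAs (miR-143 and miR-145) summed to 126432 CPM, above the highest somatic sum of 52090, and epithelial miRNAs to 6906 CPM, above 3379. How far these cell types set the levels described above was not tested. Liver miRNAs had 3 of 6 names higher and 1 lower, neuronal miRNAs 3 of 39 higher and 1 lower, and retina and lens miRNAs 3 of 13 higher and 1 lower, beside 9.05% and 1.39% of all names. The higher names of the retina and lens list were all forms of miR-184, and the median log2 fold change of that list was -1.59. The neuronal share of higher names was under that of all names. Without eye or either white muscle library, 0 neuronal names were lower, as without either brain library, and without heart 4 were. In DESeq2 the liver, neuronal and retina lists had 2, 1 and 2 higher names and 1, 5 and 1 lower. The skeletal muscle and heart list had 3 lower there, and the blood cell and mesenchyme lists 1 each. DESeq2 also called more names lower over all names.

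**Figure D5:**
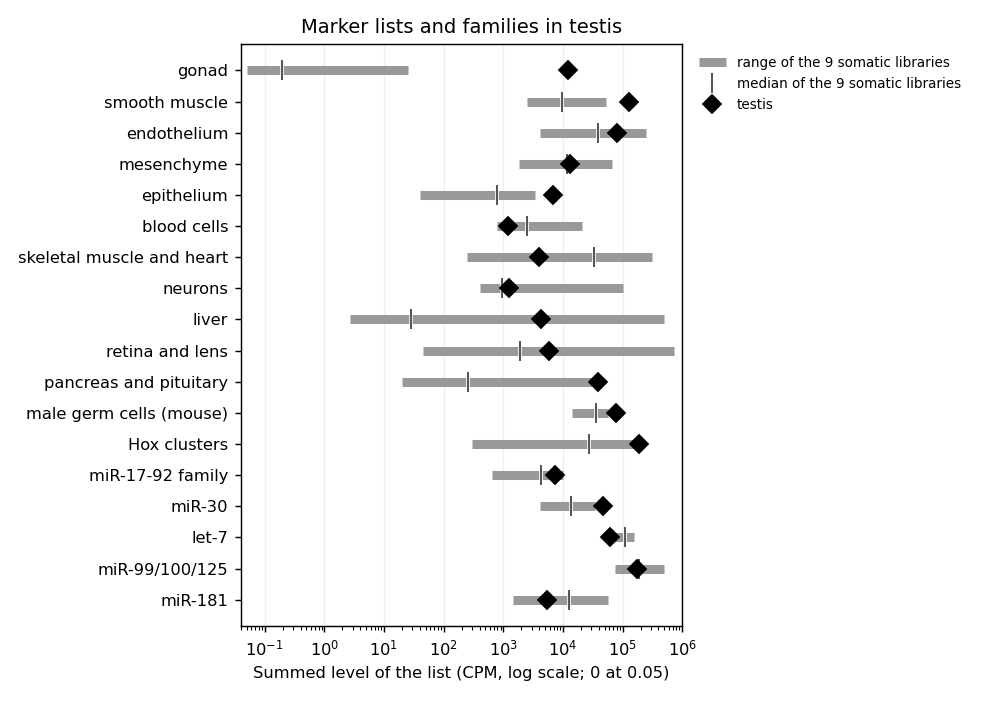
Summed level of 18 marker lists and families (CPM, log scale) in testis (black diamond), with the range (grey bar) and the median (tick) of the 9 somatic libraries. Testis lies beyond the right end of the bar for gonad (12187 CPM), smooth muscle (126432 CPM), epithelium (6906 CPM), pancreas and pituitary, male germ cells and miR-30, and near the left end for blood cells and let-7. Its lead is only 1.03-fold for pancreas and pituitary, 1.37-fold for male germ cells and 1.36-fold for miR-30. The sums use library totals and were not scaled by TMM factors. Those factors would reverse the leads for pancreas and pituitary and for male germ cells, and the other sums were not checked after scaling.

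With library totals, markers of male germ cells known from mouse were above the somatic libraries as a sum, but no name was called in the test. Of the 12 names, 3 were above every somatic library, beside 12.3% of all names. The list summed to 77396 CPM in testis, 1.37-fold above 56413 in male white muscle, mostly from miR-146a-5p and miR-21-5p. This sum was not scaled by TMM factors, which act alike on all names of a library. They took the miR-202-5p lead over male white muscle from 470-fold to 269-fold, and the same factor reverses the lead of this sum. Ovary had more than testis, at 245821 CPM. Of 12 names of miR-34, miR-449, miR-21, miR-146, miR-221 and miR-222, 0 passed in edgeR, while DESeq2 called 1 lower. Of miR-34, only miR-34a is among the names, so that other members could not be followed. Testis had 3.82 CPM of miR-34a-5p (5 reads), below the somatic median of 15.8. Testis had 3.06 CPM of miR-449-5p (4 reads), beside 2.51 in male brain, a ratio of 1.22 with a counting interval of 0.298 to 3.73. It had 238.5 CPM of miR-221-3p, beside a median of 277.9. Families at about the somatic level were miR-29 (312.7 CPM beside a median of 313.3) and miR-26 (85107 beside 81981). In the lists for these families and for miR-15 and miR-16, the miR-23, miR-24 and miR-27 families, miR-99 and miR-100, miR-103, miR-130, miR-148, miR-181 and a list of miRNAs described in fish, 0 names passed in edgeR. DESeq2 called 2 miR-181 names lower.

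The files name 89 tested miRNAs with an n, which are candidates without a name in other species. Of them 19 were above every somatic library, beside 12.3% of all names, but 16 of the 19 had fewer than 50 testis reads and the 19 together held 0.0408% of the testis reads. In edgeR 5 of the 89 passed, a share under the 9.05% of all names, and in DESeq2 only 1, miR-n780-5p. The candidate miR-n813-5p had 38 reads in testis (29.1 CPM) and 0 in each of the 9 somatic libraries and in ovary. This puts testis at least 12.4-fold above the somatic libraries. Like miR-n961-5p, this candidate entered the test through its testis reads alone. With 27 reads, miR-n961-5p was 12.2-fold above female white muscle (counting interval 4.93 to 36.1). With 61 reads, miR-n780-5p was 3.60-fold above eye, or 1.46-fold after TMM scaling, with 202.8 CPM in ovary. The other names that passed, miR-n886-5p and miR-n015-5p, had 33 and 10 reads, and miR-n015-5p was lost without female brain (adjusted p = 0.073 in edgeR).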

How the data were processed

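Small RNA libraries (Trizol, TruSeq small RNA, Illumina GAIIx) were analysed from the deposited files, 1 per library. The authors deposited raw counts per arm and locus, which count a read at every locus it matches, and estimated counts, in which that read is divided over its loci. Neither is normalized. DESeq appears in the submitters' processing notes, with no version. For the counting tool, nothing is given in the sources used here. There are 734 named entries in the files, and 2 lines without a name (0 reads) were left out.

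Estimated counts were summed per mature name (577 names, of which 94 of those tested have several loci) and scaled to CPM. A library at 0 reads was set to 3 counts for ratios, in the smallest such library. Rounded estimated counts were tested in R 4.3.3 with edgeR 4.0.16 (TMM, glmQLFit, glmQLFTest, limma 3.58.1; 2-sided, Benjamini-Hochberg over 431 names), with DESeq2 1.42.0 as an alternative. Standard errors are approximate. The fit was tried on simulated counts with a common profile and the same spread in every library, apart from changes set in testis. This could not check the spread of testis. Female and male libraries of a tissue serve as replicates, and nothing shows that testis varies as they do. Other values came from Python 3.11.15 with numpy 2.4.6, pandas 2.3.3, scipy 1.17.1 and matplotlib 3.10.9.

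The members, the 27 lists and the rules were chosen with earlier results of these data known. The named miRNAs are miR-202-5p, miR-202-3p and miR-143-3p, the 10 most abundant of testis, the 15 largest ratios to the highest somatic library and the 10 smallest to a median of at least 100 CPM (50 testis reads needed for the former), the 2 most abundant of each list, and 3 candidates named with an n. Others were named after their values were seen. Alternatives were RLE factors, library totals, other filters, raw counts, all somatic libraries as 1 group, male libraries only, and leaving out each library.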

Additional observations from a re-analysis of the deposited data

Results flagged for a closer look

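The ovary library, which entered no comparison, held 14 of the 53 names above every somatic library in testis at a level above testis as well. Of the 14, 5 had at least 50 testis reads. Ovary had 389.7 CPM of miR-202-3p, 174634 CPM of miR-146a-5p, 202.8 CPM of miR-n780-5p, 3692 CPM of miR-145-3p and 133.8 CPM of miR-21-3p-2. In all, 21 of the 53 names were above every somatic library in ovary. No group had the 4 libraries needed to look for a library apart from its group.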

How the results depend on the processing

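No paired analysis was possible because testis has 1 library. The count of names higher in testis (39) stayed within 1.5 times in 6 alternatives and fell to 1 with somatic libraries as 1 group and to 0 with male libraries only. Leaving out 1 somatic library gave 33 to 50, and 30 of the 39 passed in each of these fits. The count of lower names (6) was 3 with RLE factors, 1 with library totals, 23 with DESeq2, 3 with at least 10 reads in 2 libraries, and 0 with 1 somatic group or male libraries only. It was 3 to 10 without 1 library, with 10 without heart and 3 without female white muscle, female brain or eye. The count above all somatic libraries (53) was 22 for names with at least 100 reads and 102 against male libraries only, and 53 to 73 without 1 library. The count below all (8) was 18 under TMM scaling, 70 against male libraries only, and 8 to 19 without 1 library, with 19 without liver, 17 without eye and 14 without heart. Testis held 261 names with at least 5 reads, against 394 with 1 read. Directions turned for miR-7a-5p over male brain (0.973 under TMM scaling), miR-153a-3p (-0.25 on the log2 scale, male libraries only), and miR-184-3p (-0.38) and miR-184-3p-2 (-1.13, 1 somatic group). With 0 reads set to 0.5 in place of 3, bounds over the median were 30644 for miR-202-5p, 578 for miR-202-3p and 74.4 for miR-n813-5p. The cause of these changes was not tested. The testis depth puts a name with 0 reads under 2.29 CPM.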

Other observations

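The order of the testis library by likeness to the others was described with all names that had at least 10 reads in either library. Spearman's rho with testis was 0.713 for ovary, 0.681 for male white muscle and 0.676 for liver, and 0.473 for eye. The share of composition in common was 59.1% with female red muscle, 54.4% with ovary and 19.2% with eye. These values are across miRNAs within single libraries, and no test was run on them. The neuronal miR-9-5p, a rarer form of that name beside miR-9-5p-2, had 27 reads in testis (20.6 CPM), 2.51 and 1.38 CPM in male and female brain, and at most 0.233 CPM in the other somatic libraries.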
